A study of Mus musculus with 21 samples.

Results

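Neurons that make agouti-related peptide (AGRP) were compared between mice deprived of food for 24 h and mice fed ad libitum, over all genes of the deposited count table. Libraries were chosen by their labels alone, which gave 6 food-deprived (FD) and 5 fed AGRP libraries, 11 of the 21 libraries of the series. The other 10 libraries hold POMC neurons and entered the same model. They came from males of another reporter line, labelled Pomc-GFP, on the same background and under the same feeding conditions, 5 fed mice of 51 to 56 and 5 FD mice of 54 to 56 days. Each AGRP library came from 1 male NPY-hrGFP mouse on a C57BL/6J background, a reporter line whose green fluorescence follows *Npy*. Fed mice were 46 to 55 and FD mice 47 to 55 days old. Each mouse was moved alone to a fresh cage at the start of the 24 h, and FD mice then had only water. The fluorescent cells of the arcuate nucleus were dissociated with pronase and picked by hand, 50 to 214 per mouse, so that each value is an average over the cells of 1 animal and any marked cell that does not make AGRP is part of it. RNA was amplified before sequencing.

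AGRP neurons sense falling energy stores and drive feeding. They fire more in hunger, release AGRP, neuropeptide Y and GABA, and are restrained by leptin and other signals of satiety. Peptides of this kind are made on the endoplasmic reticulum (ER), where the chain enters through the Sec61 channel, is folded and glycosylated, and leaves in COPII-coated vesicles for the Golgi. They are then cut by prohormone convertases inside dense-core vesicles and wait there for calcium-triggered release. The question put to the data was which gene programmes rise and which fall in these neurons when food is withheld, beyond the peptides and receptors for which the cells are best known.

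Stretches of regulatory sequence recur among the genes described here. The ER stress response element (ERSE) holds the boxes CCAAT and CCACG, 9 unspecified bases apart, and is a binding site of ATF6 with NF-Y, which switch on ER chaperones. It is shown because 7 of 32 promoters of ER folding genes held it, 21.9%, against 17 of 11136 promoters of tested genes, 0.153%, when both strands were read from 250 bases before to 50 bases after the RefSeq start. Among promoters of genes called higher in FD it lay in only 3 of 301 (0.997%), and in 0 of 229 called lower. The core of the unfolded protein response element, TGACGTGG, lay in 0.664% of the promoters called higher and 0.817% of all. The 250 bases upstream of *Hspa5*, at chr2:34771840-34772089 on the plus strand of GRCm38.p6, are printed first, with the boxes of the element in capitals. The windows that follow hold the element of the 6 other promoters, each 5′ to 3′ on the strand of its gene (chr8:84847052-84847111, minus, for *Calr*, chr12:17266469-17266528, plus, for *Pdia6*, chr10:86705525-86705674, minus, for *Hsp90b1*, chr11:50325779-50325838, minus, for *Canx*, chr15:88819501-88819560, plus, for *Creld2* and chr14:118937807-118937866, plus, for *Dnajc3*). In *Calr* and *Creld2* the element reads in the opposite direction, and *Hsp90b1* held 2, with the copy nearer the start also reading in the opposite direction.
Hspa5: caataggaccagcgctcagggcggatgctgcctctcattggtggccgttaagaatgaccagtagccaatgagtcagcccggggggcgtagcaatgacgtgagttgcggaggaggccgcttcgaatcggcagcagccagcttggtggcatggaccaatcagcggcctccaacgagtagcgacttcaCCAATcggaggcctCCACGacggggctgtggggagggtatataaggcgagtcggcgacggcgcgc
Calr: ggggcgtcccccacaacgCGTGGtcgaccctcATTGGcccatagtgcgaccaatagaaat
Pdia6: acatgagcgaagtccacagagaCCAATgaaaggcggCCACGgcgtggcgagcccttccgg
Hsp90b1: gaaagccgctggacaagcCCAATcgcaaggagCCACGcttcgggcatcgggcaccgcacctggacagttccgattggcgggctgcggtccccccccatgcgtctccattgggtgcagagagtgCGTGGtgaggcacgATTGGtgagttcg
Canx: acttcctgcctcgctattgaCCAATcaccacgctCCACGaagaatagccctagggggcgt
Creld2: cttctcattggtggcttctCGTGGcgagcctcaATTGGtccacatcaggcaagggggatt
Dnajc3: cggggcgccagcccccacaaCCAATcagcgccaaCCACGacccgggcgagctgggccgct

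The cyclic AMP response element (CRE), TGACGTCA, binds CREB, which is activated by cyclic AMP and calcium. It lay in 17 of 301 promoters of genes called higher in FD (5.65%), in 4 of 229 called lower (1.75%) and in 344 of 11136 tested (3.09%). Among genes above 20 CPM, the only ones that could be called, it lay in 235 of 6266 (3.75%). The windows below show it in capitals for 3 genes of the secretory and activity programmes that were called higher and for *Chgb*, a granin that was not (chr1:79440072-79440111, minus, for *Scg2*, chr13:75089762-75089801, plus, for *Pcsk1*, chr13:110394964-110395003, plus, for *Plk2* and chr2:132781552-132781591, plus, for *Chgb*). A match of letters is a description of the promoter and not evidence of binding.
Scg2: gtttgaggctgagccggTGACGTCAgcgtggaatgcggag
Pcsk1: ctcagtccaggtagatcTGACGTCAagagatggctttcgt
Plk2: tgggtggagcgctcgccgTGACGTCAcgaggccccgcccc
Chgb: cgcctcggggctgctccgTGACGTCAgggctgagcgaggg

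The AGRP libraries held 13421226 to 37663979 gene counts in FD and 14864180 to 19920638 in fed mice. Levels are normalized CPM (counts scaled by sequencing depth and TMM), and folds are log2 of FD over fed with the standard error (SE) of the fit. A bare value in brackets before a q is this log2 fold change. Significance is given as q, a p from edgeR's two-sided quasi-likelihood test after Benjamini-Hochberg adjustment for 16513 genes, those with more than 1 CPM in 3 or more libraries. Differentially expressed genes (DEG) are those that had q below 0.05, changed by more than 1 on the log2 scale and averaged above 20 CPM in any of the 4 groups, a level that 8205 genes reached. Among the DEG named below, *Creb3l1*, *Gbp6*, *Slc18a2*, *Slit2*, *St8sia2*, *Sulf1*, *Tac1*, *Tnfrsf11b* and *Vwa3a* had a mean under 20 CPM in both AGRP groups and reached that level only in POMC neurons. By this rule 736 genes were DEG (4.46% of those tested), 410 higher in FD (2.48%) and 326 lower (1.97%). With q under 0.05 alone, 5.87% of the tested genes were higher and 4.43% lower. Among the genes above 20 CPM the shares were 5.0% and 3.97%, and the FD and fed values of 12% did not overlap. The median log2 fold change was −0.02 over all tested genes and 0.09 over those above 20 CPM. FD replicate 1 lay nearest to the fed level in 202 of the 410 higher DEG (49.3%) and in 119 of the 326 lower ones (36.5%), more than any other FD library, and leaving it out gave 851 DEG. With the AGRP libraries limited to 51- to 55-day-old mice (3 FD, 3 fed) and all POMC libraries kept in the fit, there were 588 DEG. With the AGRP libraries limited in the same way to 46- and 47-day-old mice (3 FD, 2 fed), there were 181. Scaled by the added spike-in RNA in place of TMM, 41 genes passed, all of them among the 736. The volume of spike-in differed between libraries. Gene counts per spike-in count, scaled by volume and cell number, were 0.567 to 0.838 in AGRP libraries given 10 µl of the dilution. They were 3.19 to 9.11 in the set whose volume was taken to follow the cell number. The TMM factors did not overlap between the groups, at 1.04 to 1.11 in fed and 0.857 to 1.03 in FD libraries. In every gene given below with all 5 fed values, the FD and fed values did not overlap. Most of these genes were picked by a rule that asks for no overlap, so its absence is not separate support for their change.

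Markers were checked next. *Agrp* (ENSMUSG00000005705, chromosome 8, 105566698 to 105637393 in mm10, as for all genes) stood at 796, 1309, 764, 470.3 and 722 normalized CPM in the fed libraries and at 1333 to 6382 (median 3212) in FD. The groups did not overlap, with a log2 fold change of 2.08 (SE 0.39, q = 0.000531). *Npy* was also higher in every FD library than in any fed library, at 3667 to 10869 (median 6623) against 1589 to 3194, but did not pass (1.74, SE 0.59, q = 0.0558). The authors, who used limma-voom, reported *Npy* as significantly higher in FD, so whether it passes depends on the method of testing. Summed over 8 astrocyte markers the level was 24.5 to 132 CPM in fed and 46.7 to 122 in FD libraries, over 8 oligodendrocyte markers 71.8 to 109 and 55.8 to 92.2, over 9 microglial markers 0.93 to 11.7 and 0.475 to 5.42, and over 9 vascular markers 5.67 to 17.1 and 7.36 to 12.2. The 5 precursor-cell markers summed to at most 2.15 CPM, 5 red-cell genes to at most 24.0 and 10 tanycyte and ependymal markers to 26.2 to 67.0 in fed and 38.4 to 130.2 in FD. *Aldh1l1*, an astrocyte gene, had q = 0.0284 and was at 0 to 0.0551 CPM in fed and 0.304 to 6.4 (median 1.53) in FD libraries. Among 12 genes of other arcuate neurons the level summed to 321 to 672 CPM in fed and 301 to 750.4 in FD. *Slc18a2*, the vesicular monoamine transporter, passed among them (1.14, q = 0.00159), at 5.62 to 12.4 CPM in fed and 10.4 to 24.7 (median 19.6) in FD. *Pomc* was at 4.55 to 19.8 CPM in fed and 2.7 to 24 (median 10.5) in FD libraries. The part of these cells in the results was not tested. Fewer genes were detected in FD (mean 17132) than in fed libraries (18303, exact two-sided permutation test, p = 0.0476, and up to 0.105 when 1 library was left out), and the 10 most abundant genes took 4.93% of the counts in FD against 3.79% (p = 0.00433, the smallest this design can give). The smallest AGRP pools, FD replicates 2 (50 cells) and 3 (60 cells), also had the fewest genes detected, 15251 and 16463. The part of cell number in this difference was not tested. In such pooled cells, fewer cells that make a transcript and less of it per cell cannot be told apart.

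To describe the changes beyond single genes, 57 lists of genes were drawn up by textbook role, 2603 tested genes in all, and each is described by how many members were called. They held 179 of the 410 higher and 107 of the 326 lower DEG, each counted once, and 53 lists had at least 1 called member. A gene can stand on more than 1 list, so the counts of different lists are not separate. *Scg2* and *Vgf* are on both the dense-core vesicle and the later activity list. *Cdkn1a* and *Mt2* are on the glucocorticoid list and also on the p53 and the zinc list, respectively. The plot of DEG per list shows that calls to the higher side gathered in ER, peptide, activity and glucocorticoid lists, and calls to the lower side in guidance, synapse, channel, G protein and clock lists.

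**Figure D1:**
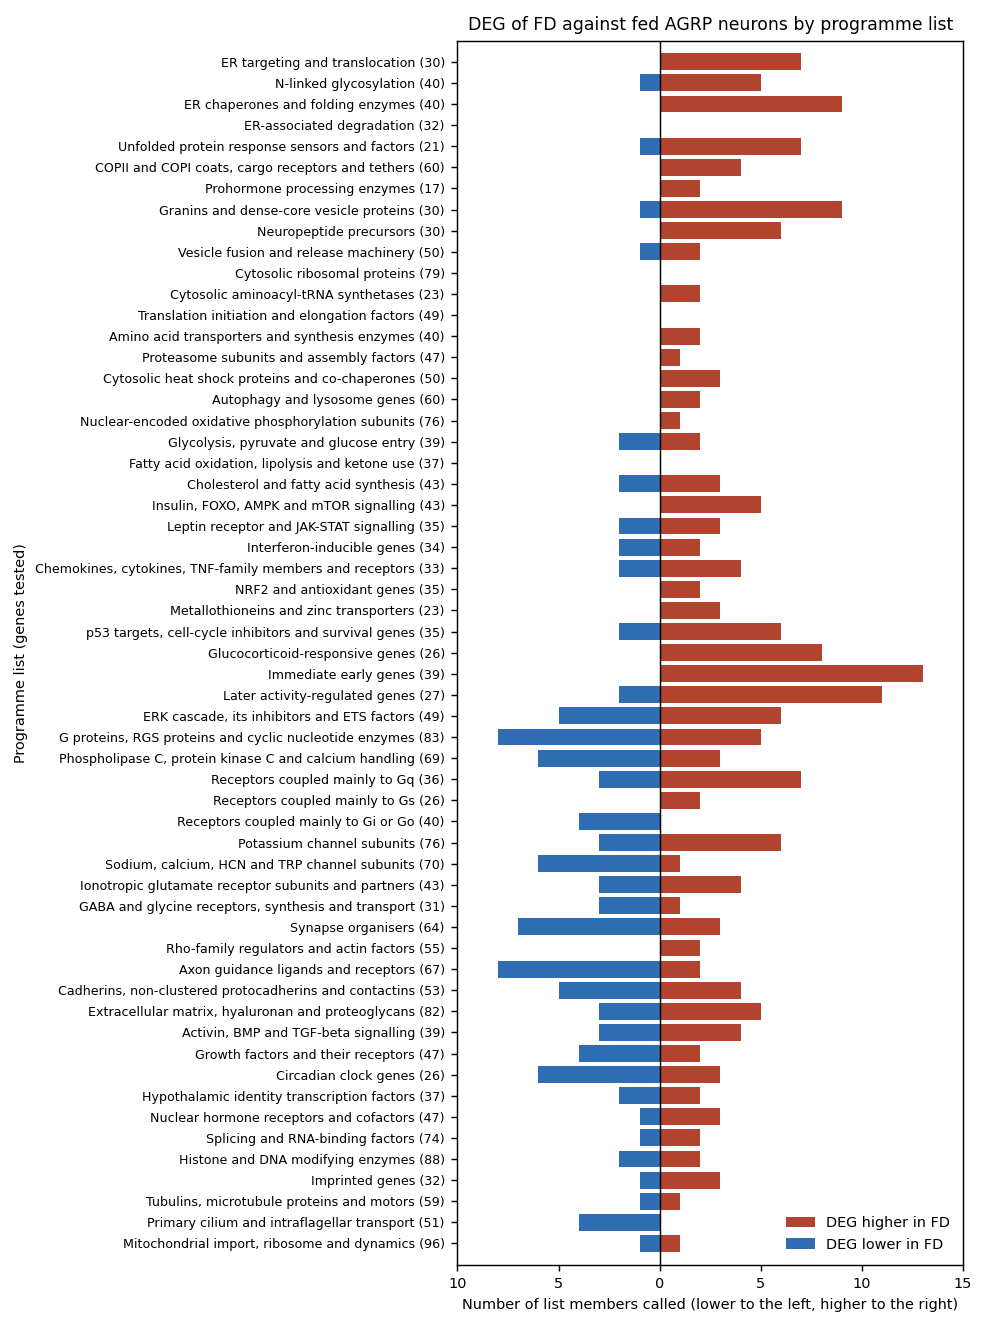
Number of DEG (horizontal axis, genes called higher in FD to the right in red, lower to the left in blue) in each of the 57 programme lists (vertical axis, with the number of genes tested in brackets). Immediate early genes held the most higher DEG (13), and axon guidance and G protein lists the most lower DEG (8 each).

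The pathway that makes and ships secreted protein rose at most of its steps. Over the lists for ER entry, N-glycosylation, folding, degradation, the unfolded protein response and coat vesicles, 32 of 223 tested genes were called higher (14.3%) and 2 lower (0.897%), and their median log2 fold change above 20 CPM was 0.55. At the entry to the ER, 7 of 30 genes were called higher and none lower, and 26 of the 29 above 20 CPM had a positive fold change. *Srpr*, the receptor that docks the signal recognition particle, rose (1.02, SE 0.16, q = 4.79e-05), as did *Srp68*, a subunit of that particle (1.20, q = 0.000211), *Tram1*, which helps chains into the channel (1.12, q = 0.000295), and *Sec61a1*, the pore itself (1.38, q = 0.00337). Among 40 genes of N-linked glycosylation 5 rose and 1 fell. The largest change was that of *Stt3b* (ENSMUSG00000032437, chromosome 9, 115242607 to 115310421), a catalytic subunit of oligosaccharyltransferase, which was at 41.7, 52.6, 47.9, 52.4 and 83.3 normalized CPM in fed libraries and 190.5 to 315 (median 224) in FD. No FD library came near the fed range, and the log2 fold change was 2.11 (SE 0.21, q = 4.83e-08). Its partners *Rpn1* (1.52, q = 2.94e-06) and *Ostc* (1.36, q = 0.000896) rose as well, whereas *Man2a1*, a mannosidase of the Golgi that trims sugars later on, fell by 1.55 on the log2 scale (q = 0.00615).

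Folding followed. Of 40 genes tested, 9 were called higher, 19 had q under 0.05 on the higher side and none on the lower, and the median log2 fold change above 20 CPM was 0.82. *Hspa5* (ENSMUSG00000026864, chromosome 2, 34771970 to 34777547), which encodes the chaperone BiP, stood at 731, 658, 506, 598 and 712 normalized CPM in fed and 1544 to 2646 (median 2092) in FD libraries. The groups did not overlap, with a log2 fold change of 1.71 (SE 0.16, q = 1.89e-08). *Hyou1*, its co-chaperone, moved likewise (1.49, q = 1.57e-07), as did the disulfide isomerases *P4hb* (1.41, q = 1.58e-06), *Pdia3* (1.22, q = 3.61e-06) and *Pdia6* (1.11, q = 0.000387) and the lectin chaperone *Calr* (1.14, q = 0.000211). *Manf*, a secreted ER protein, rose by 1.58 (q = 0.00131). Of the 7 promoters with an ERSE printed above, 6 belonged to genes with q under 0.05, all higher, and 3 were DEG. *Hsp90b1* (0.98, q = 4.88e-05), *Dnajc3* (0.92, q = 0.00159) and *Canx* (0.54, q = 0.00517) stayed under the fold threshold, and *Creld2* did not pass (1.19, q = 0.0764). The 7 had a median log2 fold change of 1.11, against 0.70 for the 25 folding genes whose promoters lack the element, of which 10 had q under 0.05 on the higher side. In degradation of misfolded ER protein no gene of 32 was called, 5 had q under 0.05 and the median log2 fold change was 0.25.

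Among the sensors and factors of the unfolded protein response, 7 of 21 rose and 1 fell. The sensors *Atf6* (1.05, q = 0.00178) and *Ern1*, which encodes IRE1 (1.42, q = 0.00381), rose with *Atf4*, the factor translated when PERK is active (1.13, q = 0.00194). *Creb3l1* and *Creb3l2*, membrane-bound factors related to ATF6 that raise secretory capacity, rose as well. *Creb3l1* (ENSMUSG00000027230, chromosome 2, 91982328 to 92024502) was at 0.641, 1.49, 1.52, 4.51 and 0.911 normalized CPM in fed and 9.09 to 27.2 (median 11.7) in FD. Every FD library exceeded every fed one, at a log2 fold change of 2.97 (SE 0.57, q = 0.000722), and *Creb3l2* changed by 1.61 (q = 9.22e-05). *Xbp1*, whose spliced form acts below IRE1, had 0.32 (q = 0.358), and *Ddit3*, which encodes the death-related factor CHOP, 0.38 (q = 0.729), so that neither passed. Counts per gene do not separate the spliced from the unspliced form of *Xbp1*, so its splicing was not measured here. *Crebrf*, a regulator that promotes loss of CREB3 protein, was the member that fell, by 1.05 on the log2 scale (q = 0.00071). Among coats, cargo receptors and tethers 4 of 60 rose and none fell, and 50 of 54 above 20 CPM had a positive fold change. *Surf4*, a cargo receptor (1.34, q = 5.54e-05), and the COPII subunits *Sec24d* (2.06, q = 0.000114) and *Sec23b* (1.19, q = 0.00112) were among them.

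Later steps changed gene by gene. Of 17 prohormone-processing genes 2 rose: the convertase *Pcsk1* (ENSMUSG00000021587, chromosome 13, 75089826 to 75132498), at 83.4, 43.9, 86.4, 70.0 and 95.6 normalized CPM in fed and 144 to 338 (median 262) in FD libraries, and the carboxypeptidase *Cpe* (1.25, q = 0.00145). *Pcsk1* did not overlap between groups (1.69, SE 0.23, q = 6.52e-06). *Pcsk2*, the related convertase, was under the fold threshold (0.66, q = 0.0134). Of 30 granin and dense-core vesicle genes 9 rose and 1 fell. *Scg2* (ENSMUSG00000050711, chromosome 1, 79434669 to 79440120), a granin packed with the peptides, stood at 1321, 1286, 1080.5, 1679 and 1763 in fed and 4350.0 to 9914 (median 7043) in FD libraries. No FD value came near the fed range, and the log2 fold change was 2.26 (SE 0.18, q = 6.5e-10). *Vgf*, a granin-like precursor, was at 30.6 to 93.8 in fed and 915 to 2224 (median 1582) in FD libraries (4.76, q = 1.02e-10). *Sv2c*, a vesicle membrane protein (2.42, q = 1.65e-08), *Rab3b*, a GTPase of secretory vesicles (1.76, q = 1.71e-07), and *Ptprn* (1.64, q = 1.58e-06) rose with them. *Chgb* had 0.66 (q = 0.021) and was not a DEG. *Rph3a*, which encodes the Rab3 effector rabphilin, fell by 2.4 on the log2 scale, with 145 to 249.6 normalized CPM in fed and 10.7 to 64.6 (median 36.4) in FD libraries (q = 6.26e-06). Of 50 genes for vesicle fusion and release 2 rose, *Snap25* (1.06, q = 9.56e-06) and *Stx4a* (1.17, q = 0.00129), 1 fell, and the median log2 fold change was −0.07.

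Transcripts of several other peptide precursors were higher in AGRP neurons in FD. Of 30 neuropeptide precursors 6 were called higher and none lower. *Pdyn* (ENSMUSG00000027400, chromosome 2, 129686565 to 129699833), the dynorphin precursor, was at 9.57, 4.24, 15.5, 9.91 and 5.46 normalized CPM in fed and 29.9 to 131 (median 77.5) in FD libraries. The groups were apart in every library (3.08, SE 0.33, q = 1.71e-07). *Nmb*, which encodes neuromedin B, was at 4.32 to 11.6 in fed and 27.1 to 85.2 (median 42.7) in FD (2.87, q = 5.54e-05). *Nts*, the neurotensin precursor, stayed at or under 6.66 in fed and was 21.2 to 111 (median 51.8) in FD libraries (4.91, q = 0.00626). *Nucb2*, the nesfatin precursor, rose by 1.22 (q = 0.000699). *Tac1* was called on its level in POMC libraries and was at most 5.64 CPM in any AGRP library.

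**Figure D2:**
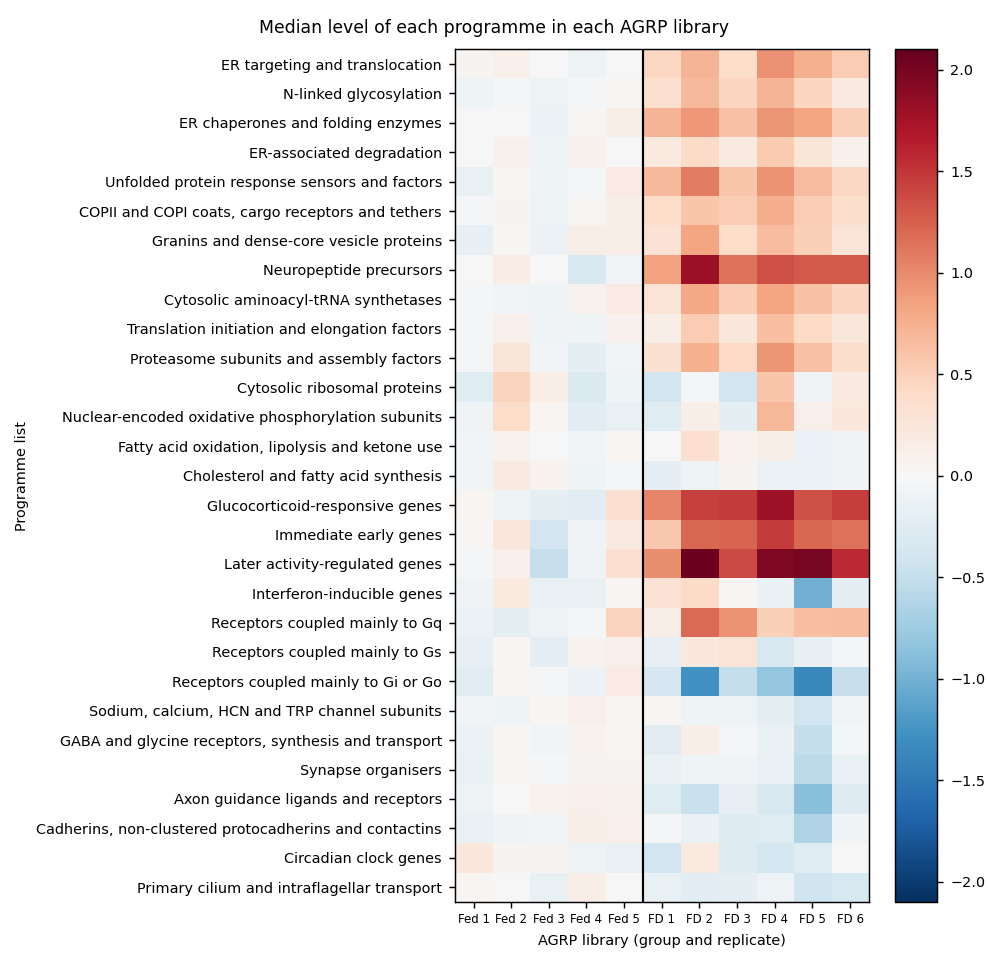
Median over the members above 20 CPM of log2(CPM + 1) minus the mean of the fed libraries, for 29 of the programme lists (rows) in each of the 5 fed and 6 FD AGRP libraries (columns), with red above and blue below the fed mean. ER, peptide, activity and glucocorticoid rows are red in all FD columns, the Gi or Go receptor row is blue in all of them, and ribosomal and oxidative phosphorylation rows vary among libraries of both groups.

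Protein synthesis itself split. None of 79 cytosolic ribosomal protein genes had q under 0.05, and their median log2 fold change was 0.00, with library medians from −0.31 to 0.47 in fed and −0.41 to 0.59 in FD. Of 49 translation factors none was called, although 12 had q under 0.05 on the higher side and 1 on the lower. Among 23 aminoacyl-tRNA synthetase genes 7 had q under 0.05, all higher, and *Eprs* (1.02, q = 0.000462) and *Cars* (1.10, q = 0.0417) were called. In the proteasome 14 of 47 genes had q under 0.05 on the higher side and none on the lower. The only one past the fold threshold was *Psme4*, an activator of the core particle (1.34, SE 0.22, q = 0.000105). *Dnajb5* (1.93, q = 3.81e-05) and *Hspb8* (1.33, q = 0.000435) were among 3 of 50 cytosolic heat shock genes that rose. *Slc6a17*, a vesicular amino acid transporter, rose by 1.18 (q = 4.51e-06). Of 60 autophagy and lysosome genes 2 rose, among them the protease *Ctsd* (1.02, q = 1.02e-05), and the median was 0.08.

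In fuel metabolism each list had 0 to 3 DEG on either side, against 2.48% higher and 1.97% lower over all tested genes. Such counts are too small to rank these lists. No gene of 37 for fatty acid oxidation, lipolysis and ketone use was called. The oxidative phosphorylation list had 1 called gene of 76, *Cycs*, which encodes cytochrome c (1.16, q = 0.00853). In glucose and pyruvate use 2 of 39 rose, *Dlat* of the pyruvate dehydrogenase complex (1.16, q = 1.67e-05) and the phosphofructokinase *Pfkp* (1.14, q = 0.000116), and 2 fell. *Pdk2* (ENSMUSG00000038967, chromosome 11, 95026258 to 95041354), a kinase that switches pyruvate dehydrogenase off, was at 50.5, 70.7, 70.2, 64 and 50.6 normalized CPM in fed and 5.35 to 29.9 (median 16.9) in FD libraries. All FD values lay under all fed values (−1.86, SE 0.40, q = 0.00197). *Slc25a5*, a mitochondrial ADP/ATP carrier, rose by 1.64 (q = 0.000137). In the sterol and fatty acid list 3 of 43 rose and 2 fell, with *Scd2*, a fatty acid desaturase, among the lower (−1.15, q = 5.09e-05).

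Hormone receptors and their pathways moved in part. Of 35 leptin receptor and JAK-STAT genes 3 rose, all receptors: *Lepr* (2.39, q = 6.04e-09), *Prlr* for prolactin (2.27, q = 6.31e-08) and *Ghr* for growth hormone (1.27, q = 1.19e-05). *Prlr* was at 25.3, 20.6, 13.5, 18.3 and 18.6 normalized CPM in fed and 33 to 121 (median 104) in FD libraries, with no overlap. Signal carriers were the members that fell, *Stat2* (−2.02, q = 0.00112) and *Jak2* (−1.19, q = 0.00337), and *Socs3*, the leptin-induced inhibitor, had −2.23 (q = 0.0576). Of 43 insulin, FOXO, AMPK and mTOR genes 5 rose and none fell, with *Pik3r1* (1.29, q = 0.000342) and *Foxo1* (1.16, q = 0.00511) among them, while *Insr* had 0.04 (q = 0.926).

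Glucocorticoid-responsive genes held the most higher DEG of the stress lists, with 8 of 26 higher and none called lower, and a median log2 fold change above 20 CPM of 1.32. *Sgk1* (ENSMUSG00000019970, chromosome 10, 21882184 to 21999903), a kinase induced by corticosteroids, was at 17.8, 25.2, 28.3, 20.2 and 33 normalized CPM in fed and 99.1 to 196 (median 136) in FD libraries. Every FD value exceeded every fed value (2.51, SE 0.42, q = 0.000133). *Fkbp5*, a co-chaperone of the glucocorticoid receptor (2.24, q = 5.54e-05), and *Errfi1* (2.41, q = 2e-06) rose too. *Tsc22d3*, another classical target, was lower in every FD library (−1.96, q = 0.0425) but under 20 CPM in mean and so not a DEG. In the antioxidant list 2 of 35 rose. *Srxn1* (ENSMUSG00000032802, chromosome 2, 152105524 to 152111376), which repairs oxidized peroxiredoxins, was at 45, 32.8, 45.2, 39.2 and 34.2 in fed and 154 to 1190.3 (median 853) in FD libraries. The change was 4.27 (SE 0.37, q = 3.58e-09), and *Gclc*, which makes glutathione, changed by 1.28 (q = 0.00058). Metallothionein *Mt2* was at 0.268 to 1.79 in fed and 6.98 to 141 (median 90.5) in FD (6.45, q = 8.16e-07), and the zinc transporters *Slc30a4* (1.31, q = 8.2e-05) and *Slc39a14* (1.59, q = 0.002) rose beside it. *Cdkn1a*, which encodes p21, was at 0.87 to 19.4 in fed and 215 to 577 (median 469) in FD, and *Plk2* (3.00, q = 1.37e-05) and *Btg1* (1.76, q = 3.81e-05) were further higher DEG of the p53 and survival list (6 higher, 2 lower of 35).

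Interferon and cytokine genes moved in both directions. Of 34 interferon-inducible genes 2 rose and 2 fell. *B2m*, the light chain of class I molecules, rose (1.21, q = 0.000652), whereas *Irf9*, which works with STAT2 (−1.46, q = 0.01), and *Gbp6* (6.91 to 34 normalized CPM in fed, 0.115 to 3.6 (median 0.686) in FD, q = 0.00513) fell. Among 33 cytokines, TNF-family members and receptors *Nfkbiz* (1.89, q = 8.07e-05), *Ccl17* (4.25, q = 0.00169) and *Tnfrsf12a* (3.52, q = 0.00331) were higher, and *Irak2* (−2.09, q = 0.000188) and the RANKL decoy *Tnfrsf11b* (−4.01, q = 0.000143) lower.

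Genes that follow neuronal activity formed the list with the most higher DEG, 13 of 39 immediate early genes, with none lower. *Egr1* was at 260.5, 289, 96, 204 and 231 normalized CPM in fed and 411 to 1026 (median 728) in FD libraries (1.72, SE 0.22, q = 4.71e-06). *Gem*, a GTPase that restrains calcium channels, was at 8.06 to 15.6 in fed and 46.1 to 105 (median 61.3) in FD (2.57, q = 6.26e-06), and *Fosl2* at 4.22 to 53.7 in fed and 96.6 to 340.1 (median 226) in FD (3.83, q = 4.78e-05). *Fos* itself had a smaller change (1.36, q = 0.0016). Not every classical member moved: *Arc* had 0.50 (q = 0.781) and *Junb* 0.64 (q = 0.433). Of 27 later activity-regulated genes 11 rose and 2 fell, with *Sorcs1*, a sorting receptor, at 12.3, 9.47, 4.44, 8.02 and 10.5 in fed and 82.5 to 213 (median 112) in FD libraries. Its groups were far apart (3.82, SE 0.30, q = 6.5e-10).

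The enzymes below receptors shifted in both directions. In the ERK list 6 of 49 rose and 5 fell. The inhibitor *Spred3* (1.71, q = 3.81e-05) and the ETS factor *Elk4* (1.30, q = 0.000512) were higher, and *Rasgrp1*, a calcium- and lipid-gated activator of Ras, was lower (−1.25, q = 0.000274). Among 83 G proteins, RGS proteins and cyclic nucleotide enzymes 5 rose and 8 fell. *Rgs4*, which shortens Gq and Gi signals, rose (1.66, q = 5.71e-06). *Rgs6*, which acts on Gi and Go, was at 17.8, 16.8, 29, 17.5 and 22.2 normalized CPM in fed and 0.152 to 4.39 (median 0.686) in FD libraries (−4.09, SE 0.94, q = 0.00399). *Gnal*, which encodes the stimulatory subunit Golf (−1.03, q = 1.2e-05), and the phosphodiesterase *Pde2a* (−1.42, q = 0.000918) fell as well. On the phospholipase C side *Plce1* (ENSMUSG00000024998, chromosome 19, 38481121 to 38785030) was at 14.6, 12.1, 11.9, 14.8 and 19.1 in fed and 37.8 to 241 (median 146) in FD libraries. It was the largest increase of its list (3.29, SE 0.35, q = 1.71e-07), and *Prkca*, a protein kinase C, rose by 1.04 (q = 0.000289). Of the 69 genes in that list 6 fell, *Vsnl1*, a neuronal calcium sensor, among them (−1.35, q = 0.000462).

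Receptors were grouped by the G protein they use. Among 36 genes for receptors coupled mainly to Gq, which excites, 7 were called higher and 3 lower. Among 40 for receptors coupled mainly to Gi or Go, which inhibit, none was higher and 4 were lower, and of 26 for Gs 2 were higher. The medians above 20 CPM were 0.76 for Gq, −0.72 for Gi or Go and −0.46 for Gs, and the plot of receptor changes shows each gene. The Gs value rests on 9 genes. Over all tested genes of these lists the medians were 0.15 for Gq, −0.73 for Gi or Go and 0.27 for Gs. The ghrelin receptor *Ghsr* stood at 126, 143, 146, 131 and 271 normalized CPM in fed and 452 to 740.4 (median 514) in FD libraries (1.72, SE 0.37, q = 0.002). Receptors for neuromedin U (*Nmur2*, 0.122 to 2.41 in fed and 7.44 to 60.8 (median 15.1) in FD, q = 4.78e-05), neuromedin B (*Nmbr*, 2.28 to 13.4 and 18.5 to 84.5 (median 34.1), q = 0.0146) and serotonin (*Htr2a*, 0.22 to 11.4 and 20.1 to 42.2 (median 30.3), q = 0.023) were low in fed mice and higher in every FD library. Lower in FD was *Adra1a*, an adrenergic receptor (−1.35, q = 0.0128). *Gpr64*, an adhesion receptor of the Gs list, was at 11.2, 7.38, 7.79, 10.9 and 16.6 in fed and 75.1 to 299 (median 208) in FD libraries. The groups did not overlap (4.08, SE 0.52, q = 3.85e-06), and *Gpr6* changed by 2.96 (q = 0.000974).

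The Gi and Go receptors that fell answer to peptide, amine and glutamate signals. *Npy2r* (ENSMUSG00000028004, chromosome 3, 82538383 to 82548084), the autoreceptor for neuropeptide Y and target of PYY, was at 528, 510.1, 523, 651 and 484 normalized CPM in fed and 67.6 to 193 (median 98.4) in FD libraries. Every FD mouse lay far under every fed mouse (−2.30, SE 0.23, q = 6.3e-08). *Hrh3* (ENSMUSG00000039059, chromosome 2, 180099465 to 180104488), an inhibitory histamine receptor, was at 114, 122, 120.1, 116 and 137 in fed and 6.45 to 21.6 (median 15.4) in FD libraries. Its spread within fed mice was small beside the change (−3.04, SE 0.30, q = 4.83e-08). *Htr1a*, an inhibitory serotonin receptor, was at 41.7, 52.9, 49.1, 41.2 and 61.5 in fed and 1.15 to 24.2 (median 7.73) in FD libraries (−2.12, SE 0.63, q = 0.0259).

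**Figure D3:**
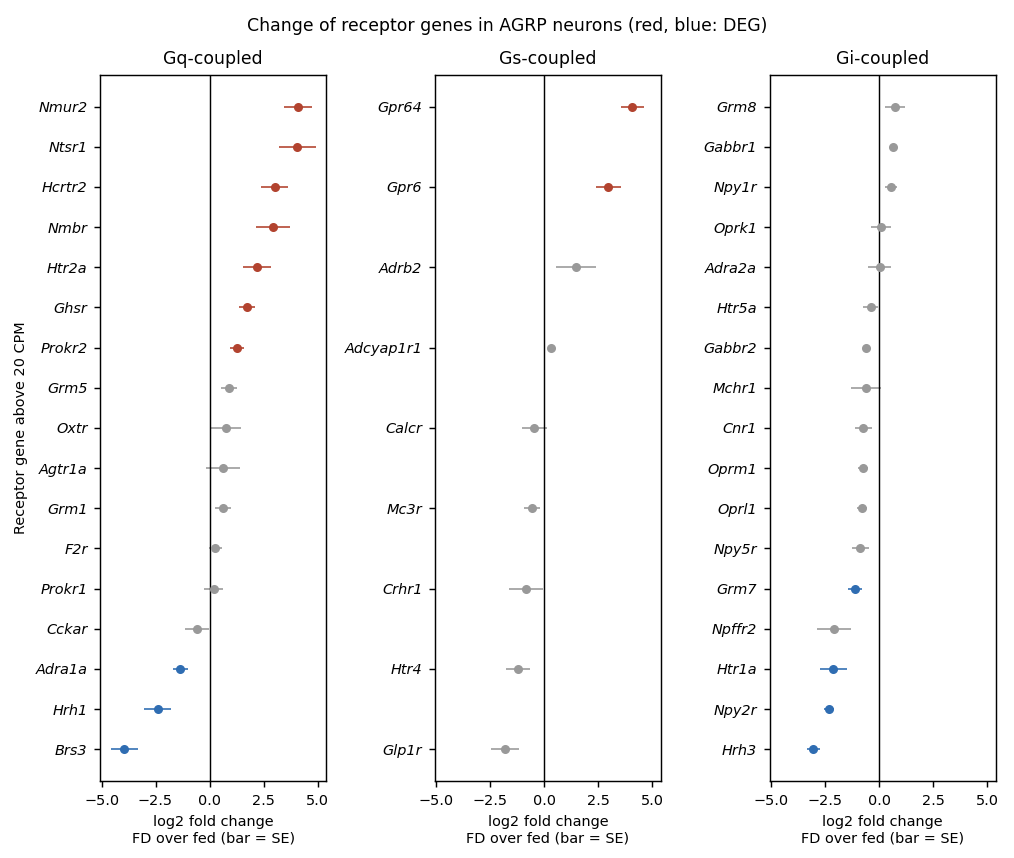
Log2 fold change of FD over fed (horizontal axis, bars are the SE of the edgeR fit) of the receptor genes above 20 CPM in at least 1 of the 4 groups (vertical axis) in AGRP neurons, for receptors coupled mainly to Gq, Gs and Gi or Go, with DEG in red (higher) and blue (lower) and other genes in grey. Of the Gi or Go receptors drawn, 5 of 17 had a positive and the others a negative change, and of the Gq receptors 13 of 17 a positive one.

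Ion channels and fast receptors changed in both directions. Over 220 tested genes of the channel, glutamate and GABA lists 12 were higher (5.45%) and 15 lower (6.82%). Of 76 potassium channel genes 6 rose and 3 fell, with *Kcnc2*, a fast-repolarizing channel (1.03, q = 0.000375), *Kcnf1*, a silent subunit (1.48, q = 0.00096), and *Kcnab1* (2.16, q = 0.00886) higher. Among 70 genes for sodium, calcium, HCN and TRP channels 1 rose and 6 fell. *Cacna1i* (ENSMUSG00000022416, chromosome 15, 80287238 to 80398279), a low-threshold calcium channel, was at 22.1, 45.7, 55, 25.5 and 26.3 normalized CPM in fed and 2.46 to 18.3 (median 7.15) in FD libraries. The groups did not overlap (−1.94, SE 0.41, q = 0.00192), and *Cacnb4* (−1.01, q = 0.000133) and *Cacng5* (−1.10, q = 0.00337) fell too. Glutamate receptor genes (4 higher, 3 lower of 43) moved both ways, with the AMPA subunit *Gria3* at 33.3 to 50.2 in fed and 110.1 to 193 (median 145) in FD libraries (1.76, q = 1.81e-05) and the NMDA subunit *Grin2b* at 548 to 755 and 265 to 412 (median 305) (−1.01, q = 4.51e-06). *Shisa9*, an AMPA receptor partner, fell by 1.47 on the log2 scale (q = 0.000218). In the GABA list (1 higher, 3 lower of 31) the receptor subunit *Gabra2* was at 19.1, 22.5, 14.7, 15.2 and 21.8 in fed and 36.6 to 69.3 (median 56.1) in FD libraries (1.52, SE 0.32, q = 0.00184). *Gabra3* went the other way, with 120.2, 112, 144, 131 and 112 in fed and 37 to 70.1 (median 47.1) in FD (−1.36, SE 0.21, q = 3.81e-05). Neither overlapped between groups.

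Lower DEG outnumbered higher ones among molecules that shape contacts. Over synapse organisers, axon guidance and cell adhesion, 20 of 184 genes were called lower (10.9%) and 9 higher (4.89%). Of 67 guidance genes 8 fell and 2 rose, and the median log2 fold change was −0.42. *Efnb3* (ENSMUSG00000003934, chromosome 11, 69554092 to 69560205), an ephrin ligand, stood at 129, 144, 108, 119 and 114 normalized CPM in fed and 23 to 64.2 (median 34.5) in FD libraries (−1.66, SE 0.21, q = 2.35e-06). *Efnb2*, the related ligand, moved in the opposite direction, with 70.7, 42.7, 59.3, 56.2 and 109 in fed and 186 to 293 (median 273) in FD (1.89, SE 0.26, q = 1.37e-05). The semaphorin *Sema3a* rose as well (21.4 to 36 in fed and 78.6 to 313 (median 205) in FD, q = 2.27e-05). A ligand and its receptor fell together in *Slit2* (−2.27, q = 0.00143) and *Robo2* (−2.29, q = 0.00588), and *Plxnc1* fell by 1.03 on the log2 scale (q = 8.56e-05).

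Among 64 synapse organisers 7 fell and 3 rose. *Ntng1*, which encodes netrin-G1, was at 8.97, 5.95, 7.0, 6.07 and 13.4 normalized CPM in fed and 91.5 to 137 (median 112) in FD libraries, the smallest q of its list (3.76, SE 0.26, q = 8.53e-11). *Lrrc4c*, which encodes the netrin-G1 ligand of the partner cell, fell, with 64.1 to 117 in fed and 14.5 to 45.3 (median 32.5) in FD (−1.53, q = 1.81e-05). *Cbln4*, a secreted cerebellin (−2.78, q = 0.000131), and *Tenm2*, a teneurin (−1.17, q = 0.000152), fell as well. The large cadherins *Fat3* (124 to 245 in fed, 16 to 46.2 (median 30.9) in FD, q = 5.77e-07) and *Fat1* (21.6 to 65.6 and 2.08 to 17.2 (median 8.3), q = 8.45e-06) were lower in every FD library, and *Cd24a*, a small surface glycoprotein, was higher (2.15, q = 1.67e-05). Actin regulators had 2 higher DEG of 55, the kinases *Pak3* (1.01, q = 3.86e-06) and *Ptk2b* (4.21, q = 0.00109).

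Outside the cell, 5 of 82 matrix genes rose and 3 fell. *Layn* and *Lyve1*, both receptors for hyaluronan, were at most 0.22 and 1.6 normalized CPM in fed and at 7.78 to 70.5 (median 52.5) and 43 to 217 (median 115) in FD libraries. *Thbs1*, which encodes thrombospondin 1, rose by 3.79 (q = 0.000184), and *Sulf1*, which trims heparan sulfate, fell by 3.98 on the log2 scale (q = 6.89e-05). In the activin, BMP and TGF-beta list 4 of 39 rose and 3 fell, with *Bmp3* at 33 to 87.1 in fed and 0.81 to 13 (median 5.35) in FD libraries (−3.21, q = 9.13e-05) and *Smad9* lower too (−1.26, q = 0.0154). *Fstl4* was higher (1.04, q = 0.00125). Of 47 growth factor genes *Gfra1*, the GDNF co-receptor, rose (2.42, q = 2e-06), and *Angpt1* (−2.19, q = 0.000116) and *Enpp2* (−1.13, q = 0.000458) were among 4 that fell. *Hhip*, a hedgehog-binding protein, was at most 4.39 in fed and 10.1 to 109 (median 67) in FD libraries (q = 0.00292), and the hedgehog receptor *Ptch1*, 1 of 4 lower DEG among 51 primary cilium genes, fell by 1.24 on the log2 scale (q = 0.0026).

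Most DEG of the clock list were lower in FD. Of 26 genes 6 fell and 3 rose. *Per3* (ENSMUSG00000028957, chromosome 4, 151003652 to 151044665) was at 81, 41.1, 135, 72.4 and 65.6 normalized CPM in fed and 4.35 to 18.6 (median 5.85) in FD libraries. No FD value reached the fed range (−3.31, SE 0.35, q = 1.13e-07). *Hlf*, a PAR-domain factor that binds the D-box, was at 169, 154, 111, 123 and 141 in fed and 4.56 to 36.9 (median 10.5) in FD libraries (−3.14, SE 0.37, q = 8.9e-07), and its relative *Tef* fell as well (−1.74, q = 0.000105). *Nfil3*, which competes with these factors for the D-box, rose (2.63, q = 0.00133). The repressors *Bhlhe40* (205 to 329 and 0.354 to 18.6 (median 8.07), q = 2.35e-07) and *Bhlhe41* (31.4 to 84.1 and 0.518 to 14.2 (median 6.54), q = 5.13e-05), which bind E-boxes, and *Ciart* (−2.55, q = 0.0244) fell. Of the core loop *Clock* had −0.06 (q = 0.892), *Arntl* 0.16 (q = 0.874), *Per2* −1.02 (q = 0.257) and *Per1* 0.71 (q = 0.0386), none of them a DEG. All mice were taken around the middle of the light period.

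The D-box, TTATGTAA, lay in 2 of 22 clock promoters (9.09%), in 0.332% of the promoters of higher DEG, 0.873% of those of lower DEG and 0.521% of all 11136. The E-box, CACGTG, lay in 5 of the 22 (22.7%), in 6.98% of the promoters of higher DEG, 8.73% of those of lower DEG and 9.82% of all. Of these clock promoters, 1 with a D-box and 2 with an E-box belong to genes that were not DEG. The windows, with the motif in capitals, hold both D-boxes upstream of *Per3* (chr4:151044806-151044885, minus) and the E-boxes of *Ciart* (chr3:95882259-95882358, minus), *Bhlhe41* (chr6:145865551-145865590, minus) and *Tef* (chr15:81802528-81802567, plus), since all 4 genes fell.
Per3: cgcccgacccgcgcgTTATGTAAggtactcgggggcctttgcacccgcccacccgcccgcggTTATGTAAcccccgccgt
Ciart: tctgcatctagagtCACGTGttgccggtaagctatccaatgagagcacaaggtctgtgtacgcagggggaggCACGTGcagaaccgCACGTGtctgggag
Bhlhe41: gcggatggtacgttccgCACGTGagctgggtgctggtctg
Tef: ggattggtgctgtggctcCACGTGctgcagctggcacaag

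Nuclear factors and RNA-binding proteins moved in both directions. Of 88 histone and DNA modifying enzymes 2 rose and 2 fell (2.27% each way), and of 74 splicing factors 2 rose (2.7%) and 1 fell (1.35%), near the shares over all tested genes. *Rbm3*, an RNA-binding protein known for induction by cold, was at 50.3, 33, 59.7, 28.7 and 41.5 normalized CPM in fed and 91.3 to 118 (median 111) in FD libraries (1.35, SE 0.20, q = 3.81e-05). *Ncoa2*, a coactivator of nuclear receptors (1.74, q = 2.71e-08), and the developmental factors *Zfhx2* (1.61, q = 2.87e-05) and *Sox11* (1.20, q = 0.000656) rose. Of 32 imprinted genes 3 rose and 1 fell, with *Dlk1*, a Notch-like ligand, at 1469.6, 1362, 1212, 1418 and 1617 in fed and 2531 to 4304 (median 3579) in FD libraries (1.29, SE 0.16, q = 2e-06).

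**Figure D4:**
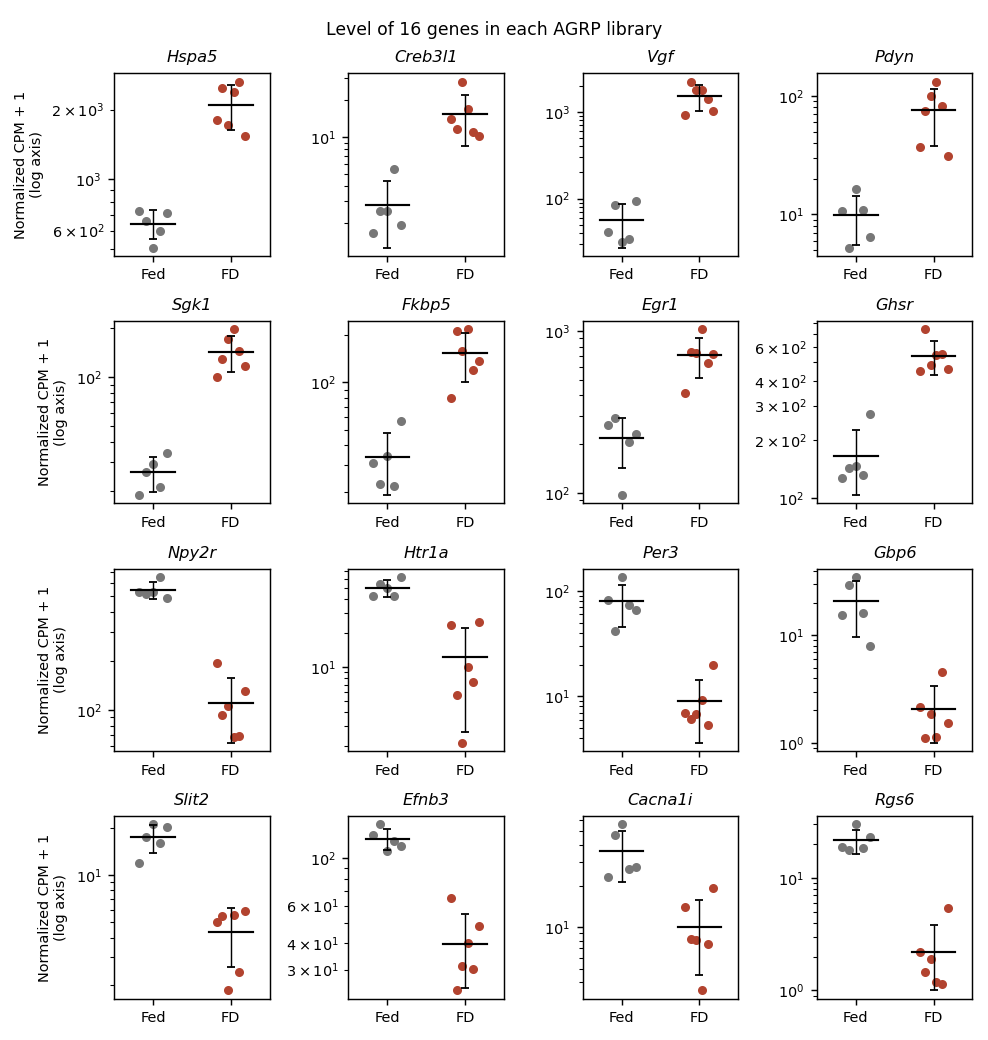
Normalized CPM plus 1 (vertical axes, log scale) of 16 genes in each fed (grey) and FD (red) AGRP library, with the group mean (bar) and SD (whiskers, cut at 0 CPM). In all 16 panels the FD points and the fed points do not overlap. For most of these genes this was a condition of being named, and 12% of all genes above 20 CPM met it.

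The largest changes of all, among DEG whose groups did not overlap, held genes of no list. *Svs2* (at most 0.75 normalized CPM in fed, 1.9 to 45.7 (median 31.6) in FD), *Slco1a1*, an organic anion transporter (1.92 and 14 to 74.8 (median 16.9)), and *Cftr*, the chloride channel mutated in cystic fibrosis (1.29 and 6.8 to 45.5 (median 18.3)), were all close to 0 in fed mice, so that their log2 fold changes of 7.06, 5.77 and 5.75 rest on few fed counts (q = 0.000102, 0.000143 and 2.29e-06). On the lower side *Vwa3a* was at 5.72 to 10.1 in fed and 0.425 to 1.27 (median 0.703) in FD libraries (−3.48, q = 5.61e-06). *Mdga1*, a membrane protein that blocks neuroligins, was at 17.2 to 25 and 0 to 7.19 (median 2.31) (−3.21, q = 0.0211).

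Gene size was also described. The gene span, from the GENCODE M21 annotation of the same build, had a median of 36.3 kb for the higher DEG, 51.4 kb for the lower DEG and 31.7 kb for all genes above 20 CPM, and 34.4% of the lower DEG spanned over 100 kb, against 26.5% of the higher DEG and 18.8% of all. The summed exon length was 4.96, 6.1 and 5.39 kb.

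POMC neurons of the same study served as a comparison, with the difference between the change in AGRP and in POMC neurons tested directly as an interaction in the same edgeR fit. It had q under 0.05 for 438 of the 736 AGRP DEG (59.5%), for 279 of the 410 higher (68.0%) and for 159 of the 326 lower DEG (48.8%), against 6.71% of all tested genes. The AGRP change by which the DEG were chosen is itself part of this difference. A share above that of all genes, here and in the lists below, thus follows in part from the choice. The POMC mice were all in the older age cohort, and with age cohort as a block in the fit 457 of the 736 had such a q. Among the DEG of the ER and coat lists it was 30 of 34, with *Hspa5* at 1.71 in AGRP and −0.31 in POMC neurons (difference 2.02, q = 8.6e-07). For the immediate early list it was 12 of 13 and for the clock list 8 of 9. *Per3* changed by −3.31 and 1.06 (difference −4.37, q = 8.6e-07). *Hrh3* (−3.04 and 2.63, difference −5.67, q = 1.03e-09) and *Spred3* (1.71 and −2.71, difference 4.42, q = 7.82e-09) had estimates of opposite sign in the 2 neuron types. For the glucocorticoid list the difference had q under 0.05 in 4 of 8 DEG. *Fkbp5* had 2.24 in AGRP and 1.47 in POMC neurons, a difference of 0.77 (q = 0.393), and *Rasgrp1* had −1.25 in both. *Irf9* (−1.46 and −1.65, q of the difference = 0.898) and *Angpt1* (−2.19 and −1.92, q = 0.838) also did not differ past the threshold, which does not show that they changed alike.

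**Figure D5:**
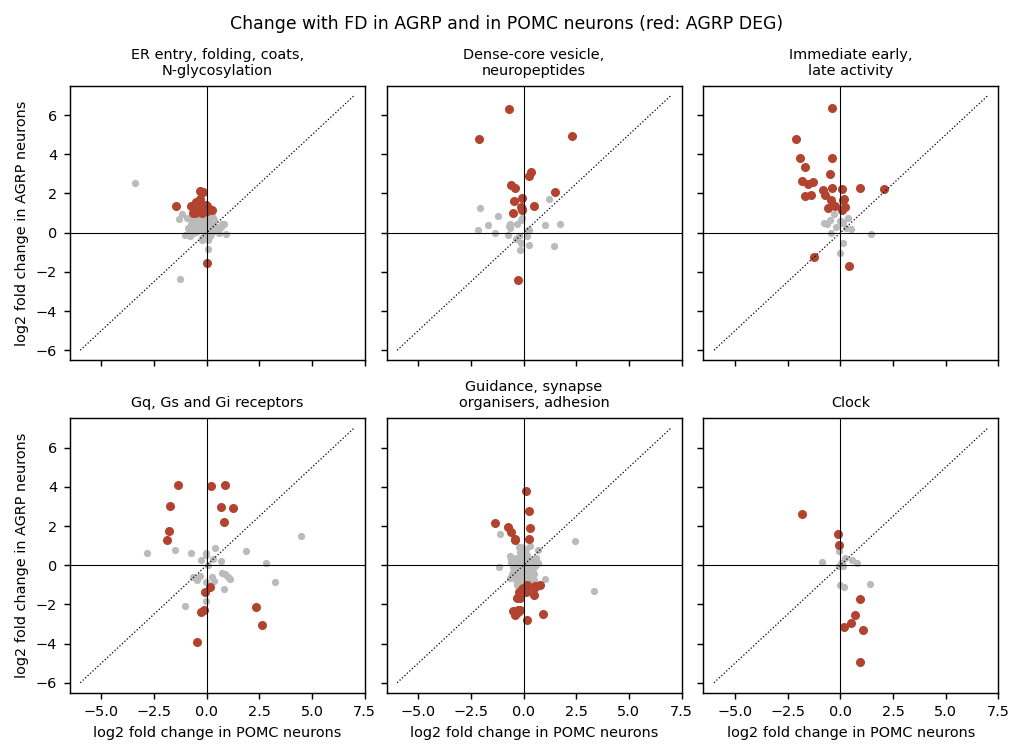
Log2 fold change with FD in POMC neurons (horizontal axis) and in AGRP neurons (vertical axis) of the members above 20 CPM of 6 groups of lists (the ER panel holds ER entry, folding, coats and N-glycosylation, without the unfolded protein response), with AGRP DEG in red, other members in grey and the dotted line where both changes are equal. In the ER panel every red point but *Man2a1* lies above 0 in AGRP neurons, at POMC changes of 0.28 or less, and in the clock panel *Per3*, *Bhlhe40*, *Bhlhe41*, *Hlf*, *Tef* and *Ciart* lie below 0 in AGRP and above 0 in POMC neurons.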

How the data were processed

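Reads of amplified RNA from hand-sorted cells were processed by the authors with CASAVA, cutadapt 1.7.1, Bowtie2 2.1.0, STAR 2.4.0i and HTSeq 0.6.1p1 against mm10, as listed in the submitters' processing notes. The deposited values are raw read counts per gene, with no normalization by the authors. A TPM table that the authors deposited, made from the same counts and exon lengths, was read but no result rests on it. Of the table, 35266 gene rows were kept, and 92 spike-in (ERCC) rows and 5 summary rows were dropped. Reads in no annotated gene were 25.6% to 55.3% of each AGRP library. HTSeq counted without regard to strand, so overlapping and antisense genes cannot be told apart, and neither can near-identical copies. The counts were analysed with edgeR 4.0.16 (TMM, quasi-likelihood test, 4-group model over 21 libraries, Benjamini-Hochberg adjustment) in R 4.3.3, with limma 3.58.1 and DESeq2 1.42.0 as alternatives, and checked on simulated counts. SE is the absolute log2 fold change divided by the square root of F. Replicate numbers are only names, as libraries of the same number correlated at −0.159 to 0.0026. Replicates are separate mice. Coordinates are mm10, 1-based, and promoters are RefSeq GRCm38.p6, matched for 11136 of 16513 genes.

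The comparison and the gene lists were chosen with earlier results of these data known. The genes named by rule were *Agrp* and *Npy*, up to 3 called members of each list with the smallest q and no overlap, the 10 DEG on either side with the largest change and no overlap, and markers of other cells with q under 0.05, of which 10 are left out, 1 of them because it is not reported here. The following were named in addition, after their values were seen: *Arc*, *Arntl*, *Atf4*, *Atf6*, *Bhlhe41*, *Calr*, *Canx*, *Cars*, *Ccl17*, *Chgb*, *Ciart*, *Clock*, *Cpe*, *Creld2*, *Cycs*, *Cygb*, *Ddit3*, *Dnajc3*, *Ern1*, *Fkbp5*, *Fos*, *Hsp90b1*, *Htr2a*, *Insr*, *Jak2*, *Junb*, *Man2a1*, *Manf*, *Nfil3*, *Ngb*, *Nmbr*, *Nucb2*, *Pcsk2*, *Pdia3*, *Pdia6*, *Per1*, *Per2*, *Plxnc1*, *Pomc*, *Ptprn*, *Rab3b*, *Robo2*, *Rph3a*, *Sec61a1*, *Slit2*, *Socs3*, *St6galnac5*, *St8sia1*, *St8sia2*, *Stat2*, *Tef*, *Tenm2*, *Thbs1*, *Tnfrsf12a*, *Tsc22d3*, *Xbp1*. Alternatives covered normalization, filters, single libraries left out, age cohort, spike-in scaling and cell number, of which those on libraries of 60 or fewer cells and on the spike-in set were added after seeing the data.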

Additional observations from a re-analysis of the deposited data

Results flagged for a closer look

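In 32 of 370 group checks over the genes named here, 1 library lay apart from the rest of its group by Dixon's test, where chance flags about 1 in 20 groups. The values that follow are normalized CPM, each with the nearest library of the same group. FD replicate 1 stood apart for *Arc* (5.07, nearest 11.5) and *Kcnc2* (202, nearest 307). FD replicate 2 stood apart for *Clock* (249, nearest 186), *Gfra1* (168, nearest 102), *Ghsr* (740.4, nearest 553) and *Nmur2* (60.8, nearest 24.7). FD replicate 3 stood apart for *Creb3l1* (27.2, nearest 15.8). FD replicate 4 stood apart for *Ciart* (13.5, nearest 5.14) and *Fos* (389, nearest 212). FD replicate 5 stood apart for *Cd24a* (399, nearest 201), *Gbp6* (3.6, nearest 1.15) and *Slco1a1* (74.8, nearest 18.9). FD replicate 6 stood apart for *Per2* (61.1, nearest 17.4), *Per3* (18.6, nearest 8.12), *Rgs6* (4.39, nearest 1.21) and *Tnfrsf11b* (2.23, nearest 0.486). Fed replicate 1 stood apart for *Slco1a1* (1.92, nearest 0.214). Fed replicate 3 stood apart for *Fat1* (21.6, nearest 60.8). Fed replicate 4 stood apart for *Adra1a* (110.4, nearest 78.6), *Cbln4* (85.2, nearest 52), *Creb3l1* (4.51, nearest 1.52), *Npy2r* (651, nearest 528) and *Srpr* (98.4, nearest 123). Fed replicate 5 stood apart for *Cdkn1a* (19.4, nearest 2.13), *Cftr* (1.29, nearest 0.22), *Fosl2* (53.7, nearest 8.48), *Ghsr* (271, nearest 146), *Kcnf1* (153, nearest 58.5), *Pik3r1* (140.4, nearest 78.1), *Scd2* (279.7, nearest 439), *Stt3b* (83.3, nearest 52.6) and *Svs2* (0.75, nearest 0.0609).

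For 135 of the 185 genes named here the change in AGRP neurons differed from that in POMC neurons, with q under 0.05 for the interaction in edgeR. Most of the 185 were named for their change in AGRP neurons, which is part of that difference. The differences below are the log2 fold change in AGRP minus that in POMC neurons, and their cause was not tested. Among ER, glycosylation, unfolded protein response and coat genes, the change was more positive in AGRP neurons for *Atf4* (1.15), *Calr* (1.74), *Canx* (0.69), *Creb3l1* (4.78), *Creb3l2* (1.67), *Dnajc3* (1.04), *Ern1* (1.89), *Hsp90b1* (1.20), *Hspa5* (2.02), *Hyou1* (1.91), *Manf* (2.09), *Ostc* (2.01), *P4hb* (1.46), *Pdia3* (1.18), *Pdia6* (1.54), *Rpn1* (1.85), *Sec23b* (1.59), *Sec24d* (2.25), *Sec61a1* (2.13), *Srp68* (1.10), *Srpr* (1.55), *Stt3b* (2.41), *Surf4* (1.30), *Tram1* (1.10) and *Xbp1* (0.95). ER, glycosylation, unfolded protein response and coat genes with a more negative change were *Crebrf* (−1.53). Among peptide, dense-core vesicle and release genes, the change was more positive in AGRP neurons for *Cpe* (1.32), *Nmb* (2.62), *Nucb2* (1.27), *Pcsk1* (1.58), *Pdyn* (2.74), *Ptprn* (2.07), *Rab3b* (1.83), *Scg2* (2.65), *Slc18a2* (1.21), *Snap25* (1.05), *Stx4a* (1.44), *Sv2c* (3.03), *Tac1* (7.01) and *Vgf* (6.86). Peptide, dense-core vesicle and release genes with a more negative change were *Rph3a* (−2.15). Among protein turnover, amino acid and fuel genes, the change was more positive in AGRP neurons for *Ctsd* (1.25), *Cycs* (1.58), *Dlat* (1.17), *Dnajb5* (2.22), *Eprs* (1.09), *Hspb8* (2.03), *Pfkp* (0.90), *Psme4* (1.51), *Slc25a5* (1.90) and *Slc6a17* (1.7). Protein turnover, amino acid and fuel genes with a more negative change were *Pdk2* (−3.15) and *Scd2* (−0.99). Among hormone receptor, cytokine and stress genes, the change was more positive in AGRP neurons for *B2m* (1.19), *Btg1* (1.67), *Cdkn1a* (6.76), *Errfi1* (2.49), *Gclc* (1.53), *Ghr* (1.35), *Lepr* (3.09), *Mt2* (5.92), *Nfkbiz* (2.50), *Plk2* (3.49), *Prlr* (2.18), *Sgk1* (2.14), *Slc30a4* (1.13), *Slc39a14* (2.05), *Srxn1* (4.93) and *Tnfrsf12a* (6.22). Hormone receptor, cytokine and stress genes with a more negative change were *Irak2* (−1.77) and *Tnfrsf11b* (−3.51). Among activity-regulated and second-messenger genes, the change was more positive in AGRP neurons for *Egr1* (1.54), *Elk4* (1.63), *Fos* (1.60), *Fosl2* (5.75), *Gem* (3.86), *Nfil3* (4.48), *Plce1* (3.13), *Rgs4* (2.1), *Sorcs1* (4.22) and *Spred3* (4.42). Activity-regulated and second-messenger genes with a more negative change were *Gnal* (−0.85), *Pde2a* (−2.09), *Rgs6* (−8.61) and *Vsnl1* (−1.30). Among G protein-coupled receptors, the change was more positive in AGRP neurons for *Ghsr* (3.50), *Gpr64* (3.22) and *Nmur2* (5.48). G protein-coupled receptors with a more negative change were *Hrh3* (−5.67), *Htr1a* (−4.47) and *Npy2r* (−2.20). Among channels and fast receptors, the change was more positive in AGRP neurons for *Gria3* (1.34) and *Kcnc2* (1.20). Channels and fast receptors with a more negative change were *Cacna1i* (−2.57), *Cacnb4* (−1.47), *Gabra3* (−1.47), *Grin2b* (−1.18) and *Shisa9* (−1.37). Among contact, matrix and growth factor genes, the change was more positive in AGRP neurons for *Cd24a* (3.50), *Efnb2* (1.57), *Gfra1* (2.63), *Layn* (8.86), *Lyve1* (6.19), *Ntng1* (3.65), *Pak3* (1.50), *Ptk2b* (4.23), *Sema3a* (2.52) and *Thbs1* (3.46). Contact, matrix and growth factor genes with a more negative change were *Cbln4* (−2.96), *Efnb3* (−1.50), *Enpp2* (−1.48), *Fat1* (−2.15), *Fat3* (−3.43), *Lrrc4c* (−2.02), *Plxnc1* (−1.80), *Sulf1* (−4.47) and *Tenm2* (−1.14). Among clock and nuclear genes, the change was more positive in AGRP neurons for *Dlk1* (1.37), *Ncoa2* (1.58), *Rbm3* (1.22), *Sox11* (1.05) and *Zfhx2* (2.74). Clock and nuclear genes with a more negative change were *Bhlhe40* (−5.89), *Bhlhe41* (−3.45), *Hlf* (−3.33), *Per3* (−4.37) and *Tef* (−2.68). Among genes of no list, the change was more positive in AGRP neurons for *Cftr* (3.57), *Hhip* (5.16) and *Svs2* (9.47). Genes of no list with a more negative change were *Ngb* (−1.88), *St6galnac5* (−2.41), *St8sia1* (−2.18), *St8sia2* (−3.90) and *Vwa3a* (−3.29).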

How the results depend on the processing

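Limits first. The spike-in volume and the age cohort differed between libraries, and FD replicate 1 was the FD library nearest to the fed level most often. The 736 DEG (410 higher, 326 lower) became 828 (420, 408) with limma-voom, 799 (427, 372) with DESeq2, 742 with RLE normalization, 734 with no count filter and 720 with the AGRP libraries alone. With 1 AGRP library left out they numbered 623 to 851 (without FD replicate 5 and FD replicate 1), with 357 to 471 higher and 246 to 380 lower, and 381 to 477 of the 736 had a q under 0.05 for the difference from POMC neurons (438 with all libraries). Without the FD libraries of 60 or fewer cells there were 592 (337, 255). Within the 46- and 47-day-old AGRP mice, with all POMC libraries kept in the fit, there were 181 (96, 85). With spike-in scaling there were 41 (26, 15), all 41 also with a difference from POMC neurons. Both counts rest on fewer libraries or another scaling, and the cause of the second was not tested. Of 185 genes named here, 102 lost their call in the younger cohort and 143 under spike-in scaling. The median log2 fold change of all tested genes was −0.02, and −0.13 with limma-voom or the replicate block.

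The replicate numbers are names only (correlation of same-numbered libraries −0.159 to 0.0026). With the replicate block there were 759 DEG (413 higher, 346 lower), against 729 in the same 10 libraries with no block.

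With 250 bases upstream only, the share of all promoters with a CRE was 2.62% and with an E-box 8.22%. The FD minus fed difference in genes detected was −1405 to −795.2 with 1 library left out, −1887 within the younger cohort (exact permutation p = 0.2) and −513 within the older (exact permutation p = 0.4). That in the share of the 10 most abundant genes was 1.01 percentage points in the younger (exact permutation p = 0.2) and 1.30 in the older cohort (exact permutation p = 0.1), the smallest p that these cohorts allow. Estimates near 0 changed sign for 4 genes that did not pass. *Insr* was at −0.00479 with limma-voom, −0.0109 with the replicate block, −0.0886 in the older cohort and −0.0225 to 0.118 with 1 library left out. *Ddit3* was at −0.0109 with the replicate block, −0.552 in the younger cohort and −0.601 with spike-in scaling. *Pomc* was at 0.0587 in the older cohort, 0.305 without the FD libraries of 60 or fewer cells and −0.512 to 0.0864 with 1 library left out, and *Arntl* at −0.0918 to 0.493.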

Other observations

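Gene families that the lists did not hold were described by symbol, chosen after their values were seen. Of 20 tested sialyltransferase genes none was called higher and 3 were lower. *St8sia1*, which makes the ganglioside GD3, was at 113, 135, 119, 87.9 and 72.9 normalized CPM in fed and 19.1 to 56.2 (median 27.9) in FD libraries (−1.75, SE 0.23, q = 6.1e-06, edgeR). The polysialyltransferase *St8sia2* was at 10.3 to 29.1 and 0.0506 to 7.96 (median 1.28) (−2.90, q = 0.0107), and *St6galnac5* at 34 to 94.4 and 1.88 to 20.2 (median 10.7) (−2.66, q = 0.000143). The groups did not overlap for any of the 3. Other glycosyltransferases and the sulfotransferases of heparan and chondroitin chains went the other way, with 7 of 74 higher and none lower.

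Both globin genes of neurons fell. *Ngb*, which encodes neuroglobin, was at 60.2, 61.5, 62.2, 78.5 and 69.7 normalized CPM in fed and 6.62 to 28 (median 25.9) in FD libraries (−1.61, SE 0.30, q = 0.000564), and *Cygb*, which encodes cytoglobin, at 31.6, 62.7, 47.8, 59.7 and 51.2 and 6.48 to 28.2 (median 18.5) (−1.52, SE 0.29, q = 0.000656). In neither did the groups overlap. Of 43 axonemal genes 2 were lower and none higher, of 46 Kelch-domain genes 4 were lower and none higher, and of 25 leucine-rich repeat synaptic genes 5 were lower and 2 higher. Against 2.48% higher and 1.97% lower over all tested genes, the C2H2 zinc finger genes had 4 higher and 1 lower of 329, the kinesins 1 lower of 32 and the Rab GTPases 2 higher and 1 lower of 63.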
